A study of Homo sapiens with 18 samples.

Results

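Foregut endoderm made from human embryonic stem cells was compared before and after 72 h with CHIR99021 and BMP4, in cells that had not seen retinoic acid (RA). The starting cells were 3 libraries of untreated endoderm at day 6 of differentiation, and the product was 3 libraries taken at day 9 after CHIR99021 at 2 µM and BMP4 at 50 ng/mL from day 6. The libraries were chosen by their labels and are 6 of the 18 bulk RNA-seq libraries in the study. All came from wild-type H1 cells, an established human embryonic stem cell line, so the values describe a single genetic background. Start and product differ both in time in culture and in the 2 agents. Untreated day 9 endoderm (3 libraries, neither agent and no RA) was therefore set beside them, so that the effect of time alone could be read separately. A second transit, from day 6 endoderm given RA at 2 µM for 24 h from day 5 (3 libraries) to the same RA-treated endoderm after CHIR99021 and BMP4 (3 libraries), shared no library with the first. The labels say that CHIR99021 and BMP4 were given to imitate the signals that induce respiratory fate.

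CHIR99021 inhibits the kinase GSK3, which normally marks beta-catenin for degradation, so that beta-catenin can join LEF/TCF factors on Wnt target genes. BMP4 signals through receptors that phosphorylate SMAD proteins, and the ID, SMAD6, SMAD7 and MSX genes are among the best known targets. In the embryo the foregut endoderm is patterned along its length into pharyngeal, thyroid, respiratory and hepatic regions, and Wnt, BMP, RA and Notch signals take part in that patterning.

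Levels are given in CPM, the counts of a gene per 1000000 of the library's TMM-scaled total. The ± sign gives a standard deviation (n = 3) unless SE is written. The day 6 libraries held 7526472, 6332534 and 9225430 counts and the product libraries 13676105, 8712150 and 18725728. Of 15531 tested genes, 55.6% were called at an adjusted p below 0.05, 28.1% higher and 27.4% lower in the product (edgeR quasi-likelihood test, Benjamini-Hochberg adjustment). In 9.07% the called rise and in 9.36% the called fall was at least 2-fold. Time alone, untreated day 9 against day 6, called 46.9% of genes (24% higher, 22.9% lower). CHIR99021 with BMP4 at day 9, product against untreated day 9, called 42.8% (21% higher, 21.8% lower). A count within a gene list is read against those shares. Whether replicates were separate cultures is not in the labels; the p-values therefore speak only of the spread among these libraries, and counting intervals and bounds cover counting error only.

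The libraries did not all hold the same kind of reads. Libraries given RA or CHIR99021 and BMP4 were set against the untreated libraries other than day 6 replicates 1 and 3. Between them 64 genes lay at least 10-fold apart, and 60 of these were pseudogenes (93.75%, against 3.65% of the 13723 genes with a mean of at least 2 CPM). For each library the treated-kind share of reads over those genes was computed. All libraries except day 6 replicates 1 and 3 took part in picking the genes, so their extreme shares follow from that choice. It was 23.6%, 0.986% and 40.7% in the 3 day 6 libraries and 98.5%, 98.4% and 98.2% in the product. Untreated day 9 libraries had 1.94%, 1.44% and 1.23%, so read kind and treatment cannot be told apart between start and product, or between product and untreated day 9. With the share as a covariate, which within a group varies only among the 3 day 6 libraries, 1021 genes were called in place of 8632. Of the 1021, 404 were higher and 617 lower, among 15531 tested. Of the 186 tested genes that the naming rule picks, 71 kept their side of the threshold under it and 96 lost the call. Another 18 lost the call and changed sign, and 1 gained a call. Direction was compared only for genes called in either fit, so an uncalled gene that changed sign counts among the 71. Counts of list members called in the product against day 6 are followed by those under this covariate and those with day 6 replicate 2, the day 6 library of the lowest share, as the only starting library. Both settings also called fewer genes over all tested genes, so a smaller list count there is not by itself a result about the list. In bulk RNA, fewer cells of a type and less RNA per cell cannot be told apart.

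**Figure D1:**
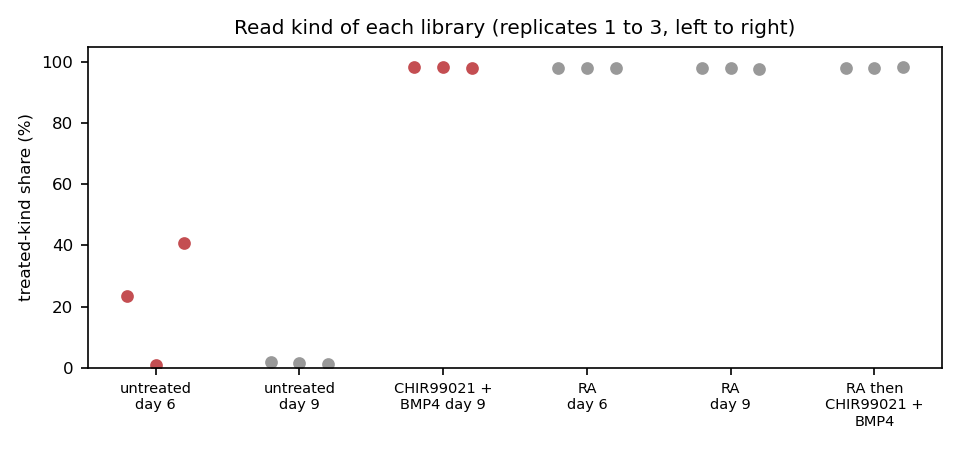
Treated-kind share of reads (percent, vertical axis) over the 64 genes that separate the 2 kinds of library, by group. Each dot is 1 of the 18 libraries, and day 6 replicates 1 and 3 were not used to pick the genes. The 3 product libraries lie at 98.2% to 98.5%, the untreated day 9 libraries below 2%, and the day 6 libraries between 0.986% and 40.7%.

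The product carried more RNA of the 4 genes that mark it: PAX1, CYP26C1, JAG1 and LEF1. PAX1, a transcription factor of the pharyngeal pouches (chromosome 20), stood at 104, 150 and 98.7 CPM at day 6 and at 372, 330 and 384 CPM in the product. The groups did not overlap, and PAX1 rose 3.09-fold (log2 change 1.63 ± 0.18 SE, adjusted p = 1.6e-06). In untreated day 9 endoderm PAX1 had fallen to 15.2 ± 3.08 CPM, so the product lay above both its start and its untreated counterpart. CYP26C1, an RA-degrading cytochrome P450 (chromosome 10), was at 110, 135 and 297 CPM at day 6 and at 540, 728 and 576 CPM in the product. It rose 3.38-fold (adjusted p = 0.00024), the highest starting library lying below the lowest product library. Under the read-kind covariate the CYP26C1 difference turned to -0.32 on the log2 scale (adjusted p = 0.868). JAG1, a Notch ligand (chromosome 20), was at 214, 254 and 222 CPM at day 6 and at 467, 375 and 441 CPM in the product. Its rise of 1.86-fold (log2 change 0.90 ± 0.26 SE, adjusted p = 0.011) was lost with day 6 replicate 2 as the only start (log2 change 0.75, adjusted p = 0.186). At untreated day 9 JAG1 was at 88 ± 23 CPM, so JAG1 fell with time alone (adjusted p = 0.0011) and was higher in the product than at day 9 without the agents (adjusted p = 2e-05).

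LEF1, the nuclear partner of beta-catenin and itself a Wnt target (chromosome 4), was at 1.47, 3.34 and 1.18 CPM at day 6. In the product it was at 40.4, 34.9 and 37.8 CPM, a rise of 19.9-fold (log2 change 4.32 ± 0.20 SE, adjusted p = 4.2e-14). All 3 product libraries lay more than 10-fold above every starting library. LEF1 averaged 8.13 CPM at untreated day 9, higher than day 6 (adjusted p = 2.6e-07) and lower than the product (adjusted p = 5.5e-11). PAX1 and LEF1 were also called under the read-kind covariate (adjusted p = 0.00327 and 9.94e-06), whereas JAG1 was not (adjusted p = 0.496).

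**Figure D2:**
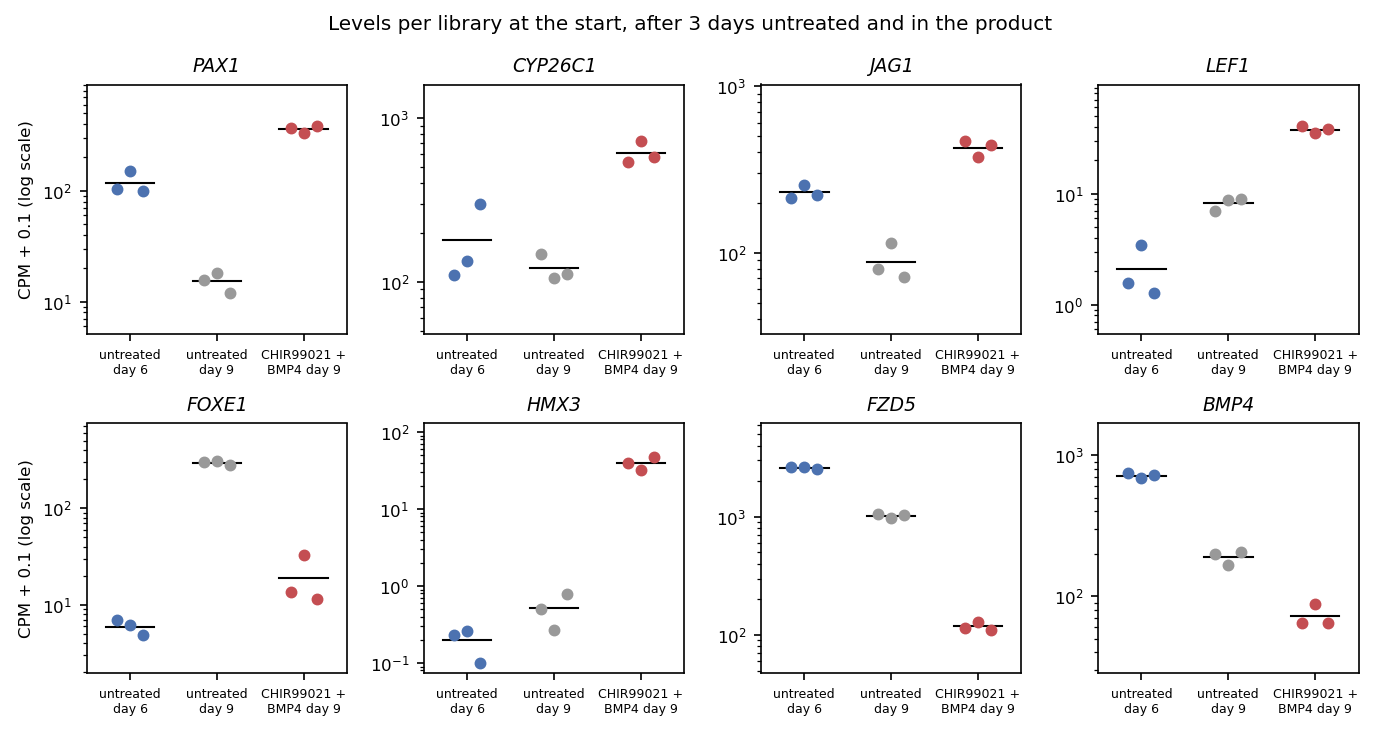
Levels of 8 genes in each library (CPM + 0.1, logarithmic vertical axis) for untreated day 6, untreated day 9 and the product of CHIR99021 and BMP4; dots are libraries and lines are group means. PAX1, CYP26C1, JAG1, LEF1 and HMX3 were highest in the product, FOXE1 in untreated day 9 endoderm, and FZD5 and BMP4 at day 6.

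The 10 largest rises were in HMX3, RORB, ALX4, UTS2, CSMD1, TMEM132C, ALDH1A1, TLX1, CYSLTR2 and PPP1R14C. The homeobox gene HMX3, known for its role in the inner ear, had 2 reads in all at day 6 (0.134, 0.159 and 0 CPM) and 39.9, 31.9 and 47.3 CPM in the product. The ratio of reads was 479, with a 95% counting interval of 132 to 3959, and untreated day 9 libraries held 0.421 CPM. Its neighbour and relative HMX2 went from 0.0358 to 4.54 ± 0.870 CPM (ratio 109, interval 19.3 to 4323), a rise that changed sign under the covariate (log2 -0.42, not called). Both HMX genes were low at day 6 and in untreated day 9 endoderm (HMX2 0.0567 CPM). RORB, a nuclear receptor of retina and brain, went from 0.0894 to 13.8 ± 2.11 CPM (ratio 153, interval 42.1 to 1266) and had 0.154 CPM at untreated day 9. ALX4, a homeobox gene of craniofacial mesenchyme, went from 0.0888 to 5.69 ± 0.773 CPM (ratio 65.7, interval 18 to 545). UTS2, the gene of the peptide urotensin II, had no read at day 6 and 3.62, 7.09 and 4.87 CPM in the product, at least 37.9-fold higher. CSMD1, TMEM132C and ALDH1A1 had 1 to 3 reads over the day 6 libraries and reached 19.3 ± 3.30, 26.1 ± 7.17 and 5.44 ± 1.96 CPM. TMEM132C also changed sign under the covariate (log2 -3.73, not called). HMX3, RORB, ALX4, UTS2, CSMD1, ALDH1A1, CYSLTR2 and PPP1R14C were not called under it either (adjusted p from 0.202 to 0.97). Of the 10 largest rises only TLX1 kept its call (adjusted p = 0.016).

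Among the largest rises, TLX1, CYSLTR2 and PPP1R14C also stood well above day 6 in untreated day 9 endoderm. TLX1, a homeobox gene of the spleen primordium and branchial arches, was at 0, 0.796 and 0.107 CPM at day 6 and at 52.5, 66.3 and 52.6 CPM in the product (209-fold). Untreated day 9 libraries held 143 CPM of TLX1, and the product lay below them (log2 difference -1.33, adjusted p = 1.6e-06). CYSLTR2, a leukotriene receptor, rose 115-fold to 46.3 ± 13.7 CPM. It stood at 30.2 CPM in untreated day 9 endoderm, and product and untreated day 9 did not differ beyond their spread (log2 difference 0.62, adjusted p = 0.075). PPP1R14C, an inhibitor of protein phosphatase 1, rose 63.0-fold to 14.3 ± 2.16 CPM and had a lower mean, 6.15 CPM, in untreated day 9 endoderm.

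Among the 10 largest falls were the transcription factors LMX1A, PAX6 and DMRTA2. LMX1A, a regulator of roof plate, was at 40.8, 34.9 and 30.0 CPM at day 6 and at 0.0724, 0 and 0.0518 CPM in the product (ratio 734, interval 202 to 6069). It was also low in untreated day 9 libraries, at 0.0804 CPM. PAX6, a regulator of eye, forebrain and endocrine pancreas, was at 7.37, 5.57 and 3.11 CPM at day 6 and had no read in the product, at least 72.5-fold lower. DMRTA2, a forebrain regulator, fell 112-fold from 11.9 ± 2.56 CPM to 0.0888 CPM. LMX1A, PAX6 and DMRTA2 were each called lower with time alone too.

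The other large falls were in genes of unlike function. MYOCD, the cardiac and smooth muscle coactivator, was at 46.0, 40.9 and 35.5 CPM at day 6 and at 0.507, 0.222 and 0.415 CPM in the product, a fall of 98.2-fold (adjusted p = 8.9e-17). Untreated day 9 libraries kept 6.20 CPM of it. NOS2, the inducible nitric oxide synthase, went from 130, 108 and 62.5 CPM to 0.724, 1.22 and 1.04 CPM (101-fold) and was at 0.901 CPM at untreated day 9. SCEL, the epithelial gene sciellin, had 10.2, 5.41 and 6.22 CPM at day 6 and no read in the product (at least 102-fold lower). ADRA1A, an adrenergic receptor, had 9.25 ± 1.01 CPM at day 6 and a single read over the product libraries. PRSS2 went from 18.9 ± 5.07 to 0.148 CPM, a value that is uncertain because it has a near-identical copy. POTEE and PGAM4 were also among the 10 largest falls, but both are near copies of other genes and belong to the genes that separate the read kinds, so no fold is given for them.

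Most measured feedback genes of Wnt signalling were higher in the product. Of 16 tested genes of 18 on the list of Wnt feedback and target genes, 11 were called higher and 2 lower (5 and 0 under the covariate, 10 and 1 with day 6 replicate 2 alone). Their median log2 change was 1.05, against 0.01 over all tested genes. AXIN2, a scaffold of the beta-catenin destruction complex and the standard Wnt reporter, was at 14.2, 11.5 and 9.77 CPM at day 6 and at 63.2, 56.6 and 56.5 CPM in the product (5.01-fold, adjusted p = 5.5e-14). NKD1, an inhibitor of the same pathway, was at 16.8, 17.0 and 18.5 CPM and then at 114, 100.3 and 94.0 CPM (5.87-fold). LGR5, the R-spondin receptor, was at 7.24, 5.73 and 5.26 CPM and then at 35.4, 66.3 and 43.4 CPM (7.91-fold). Start and product did not overlap in AXIN2, NKD1 or LGR5. NOTUM, an extracellular Wnt deacylase, rose 18-fold from 0.710 ± 0.499 to 12.0 ± 2.03 CPM. RNF43, a ligase that removes Wnt receptors, rose 2.40-fold to 4.63 ± 0.476 CPM, and TCF7 1.34-fold to 15.2 ± 0.996 CPM. Time alone called 6 of the 16 higher and 2 lower, and product against untreated day 9 called 10 higher and 2 lower. For NKD1 and LGR5 the means at untreated day 9 were 16.6 and 4.18 CPM, neither called against day 6 (adjusted p = 0.55 and 0.47).

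Other Wnt targets did not follow. DKK1, a secreted Wnt antagonist, was at 38.6, 30.4 and 19.1 CPM at day 6 and at 8.32, 6.65 and 6.06 CPM in the product. It fell by 2.06 on the log2 scale (4.16-fold lower, adjusted p = 1.6e-05), while untreated day 9 libraries stood at 30.0 CPM. The fall was not called under the covariate (log2 -0.96, adjusted p = 0.615). SP5, a zinc finger repressor of Wnt targets, was at 8.58, 1.59 and 2.90 CPM at day 6 and at 2.53, 3.33 and 2.23 CPM in the product. The groups overlapped and the difference was not called (log2 -0.74, adjusted p = 0.19). Without day 6 replicate 2 it was called lower (log2 -1.09, adjusted p = 0.0383).

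SP5 and DKK1 carry LEF/TCF core letters and were not called higher, LEF1 rose most of the Wnt targets, and BAMBI is a BMP target called higher than at day 6. The stretches before the start sites of these genes, picked by those values, are shown. Each is the 250 bases before the RefSeq gene start, read 5′ to 3′ on the gene's strand (GRCh38.p14; SP5 chr2:170715087-170715336, plus; DKK1 chr10:52314031-52314280, plus; LEF1 chr4:108166302-108166551, minus; BAMBI chr10:28677271-28677520, plus). Capitals mark the searched letters: CTTTGAA, or the same run ending in AT, TA or TT, on either strand for LEF/TCF, and GGCGCC, a letter run that SMAD proteins can bind, which reads the same on both strands.
SP5: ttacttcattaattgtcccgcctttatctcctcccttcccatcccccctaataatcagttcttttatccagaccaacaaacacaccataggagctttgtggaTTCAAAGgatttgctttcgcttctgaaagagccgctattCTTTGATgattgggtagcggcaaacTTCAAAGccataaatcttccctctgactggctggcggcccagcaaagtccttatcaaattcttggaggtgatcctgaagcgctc
DKK1: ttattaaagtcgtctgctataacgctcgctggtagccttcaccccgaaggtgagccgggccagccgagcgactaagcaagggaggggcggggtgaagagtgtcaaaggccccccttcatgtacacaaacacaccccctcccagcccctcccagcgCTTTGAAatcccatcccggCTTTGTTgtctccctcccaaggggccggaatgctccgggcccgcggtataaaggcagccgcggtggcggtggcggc
LEF1: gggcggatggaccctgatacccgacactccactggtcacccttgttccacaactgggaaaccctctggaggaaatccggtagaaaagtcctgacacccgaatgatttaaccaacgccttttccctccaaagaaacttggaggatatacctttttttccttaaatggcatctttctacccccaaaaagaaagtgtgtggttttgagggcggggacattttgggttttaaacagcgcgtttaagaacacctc
BAMBI: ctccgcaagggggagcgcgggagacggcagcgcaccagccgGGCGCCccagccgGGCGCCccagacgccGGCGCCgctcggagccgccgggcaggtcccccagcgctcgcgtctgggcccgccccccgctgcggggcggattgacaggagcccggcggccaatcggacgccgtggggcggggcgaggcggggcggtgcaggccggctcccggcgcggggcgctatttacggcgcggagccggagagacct
SP5 held 3 LEF/TCF matches, beginning at positions -148, -109 and -84 from the start, and DKK1 held 2, at -95 and -76. The LEF1 window held neither set of letters. BAMBI held GGCGCC 3 times, at -209, -196 and -181. A LEF/TCF match occurred in 11.96% of all 35116 promoters in the RefSeq table and in 5 of the 15 promoters found for 11 of the 18 Wnt target genes. GGCGCC occurred in 16.38% of all promoters and in 6 of the 23 found for 15 of the 19 BMP target genes. TCF7, which was called higher, held a LEF/TCF match at -50, and no promoter was found for AXIN2, LGR5, NKD1 or NOTUM. These matches describe letters only, and whether they bear on the changes was not tested.

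Among Wnt ligands, receptors and secreted inhibitors the direction was mixed: 9 of 27 tested members of 38 were called higher and 11 lower (1 and 3 under the covariate, 5 and 10 with day 6 replicate 2 alone). FZD5, a Frizzled receptor of early endoderm and eye, was at 2631, 2618 and 2562 CPM at day 6 and at 116, 128 and 111 CPM in the product. It fell 22.1-fold (log2 change -4.46 ± 0.10 SE, adjusted p = 1.7e-19). Untreated day 9 libraries lay between the other 2 groups, at 1026 CPM, so the fall with time alone was smaller (log2 change -1.34). FRZB, a soluble Frizzled decoy, was at 119, 102 and 56.1 CPM and then at 19.0, 19.2 and 15.4 CPM (5.19-fold lower). RSPO2 fell 4.78-fold to 0.450 CPM, whereas RSPO3, also an R-spondin that strengthens Wnt signals, rose 6.35-fold from 7.85 ± 1.07 to 50.0 ± 7.47 CPM. RSPO3 was higher still at untreated day 9, at 140 CPM. The non-canonical ligands WNT5A and WNT5B rose to 94.8 ± 23.6 and 37.2 ± 1.46 CPM (5.90-fold and 4.82-fold), and both had also risen in untreated day 9 endoderm (79.1 and 64.7 CPM).

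BMP target genes were higher in the product with no called fall. Of 18 tested genes of 19 listed, 15 were called higher and 0 lower, with a median log2 change of 1.35 (15 and 0 with day 6 replicate 2 alone, but 1 and 0 under the covariate). The 3 that were not called were DLX5, HAND1 and GATA3 (adjusted p = 0.15, 0.34 and 0.12). At an unadjusted p below 0.05 (edgeR) the counts were again 15 and 0, as they were with DESeq2 and with limma. ID2, a helix-loop-helix inhibitor, was at 49.7, 47.6 and 67.7 CPM at day 6 and at 306, 352 and 359 CPM in the product (6.12-fold, adjusted p = 1e-14). It was called under the covariate as well (adjusted p = 0.00257). ID1 reached 233 ± 32.4 CPM (2.21-fold) and ID3 261 ± 31.2 CPM (1.56-fold). MSX2 was at 4.16, 1.11 and 6.87 CPM and then at 49.0, 81.0 and 65.1 CPM (14.9-fold), and MSX1 went from 1.59 ± 0.619 to 12.3 ± 1.93 CPM (7.78-fold). TBX3, a T-box repressor, rose 9.34-fold to 240 ± 46.3 CPM, and GATA2 8.76-fold to 16.6 ± 1.80 CPM. The intracellular inhibitors SMAD6 and SMAD7 rose 1.86-fold and 2.66-fold, to 59.8 ± 5.58 and 69.9 ± 1.59 CPM. BAMBI, a decoy receptor of the pathway, was at 89.4, 79.7 and 146 CPM and then at 237, 357 and 250 CPM (2.65-fold). Under the covariate ID1, ID3, SMAD6, MSX2 and BAMBI changed sign, with log2 values from -0.50 to -0.22, none of them called. Over all 15531 tested genes the covariate left 404 called higher and 617 lower.

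Most BMP targets had also risen without the agents. With time alone 13 of the 18 were called higher and 3 lower, and product against untreated day 9 called 8 higher and 2 lower. ID1, ID3, SMAD6 and SMAD7 did not differ between the 2 day 9 groups beyond their spread (adjusted p = 0.41, 0.72, 0.51 and 0.3). BAMBI was lower in the product than at untreated day 9, where it stood at 492 CPM (log2 difference -0.81, adjusted p = 0.0086). MSX1 was the opposite case, at 0.820 CPM in untreated day 9 endoderm and called higher only against that group and the start (adjusted p = 4.3e-10 and 6.4e-09), not with time (adjusted p = 0.093). ID2 was higher in the product than at untreated day 9 (170 CPM, adjusted p = 3e-08).

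The BMP ligand genes BMP2, BMP3 and BMP4 fell in the product, and BMP6 rose. BMP4 was at 741, 684 and 718 CPM at day 6 and at 64.0, 88.2 and 64.0 CPM in the product (9.98-fold lower, adjusted p = 2e-12), with 190 CPM at untreated day 9. BMP2 went from 245, 206 and 159 CPM to 13.9, 21.3 and 11.1 CPM (13.7-fold lower), with 19.0 CPM at untreated day 9. BMP3 fell 37.3-fold, from 4.93 ± 1.85 to 0.120 CPM. BMP6 rose 11.6-fold, from 0.632 ± 0.186 to 7.32 ± 1.53 CPM. Among secreted antagonists, NOG (noggin) rose 7.75-fold from 1.07 ± 1.12 to 9.59 ± 4.22 CPM (log2 -2.96 and not called under the covariate), and CER1 (cerberus) fell 13.4-fold from 19.1 ± 9.47 to 1.48 ± 0.468 CPM. CER1 had moved the other way with time alone, to 47.2 CPM (adjusted p = 0.0064). Over the 22 ligands, receptors and antagonists, 11 were called higher and 8 lower (0 and 2 under the covariate, 8 and 7 with day 6 replicate 2 alone).

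**Figure D3:**
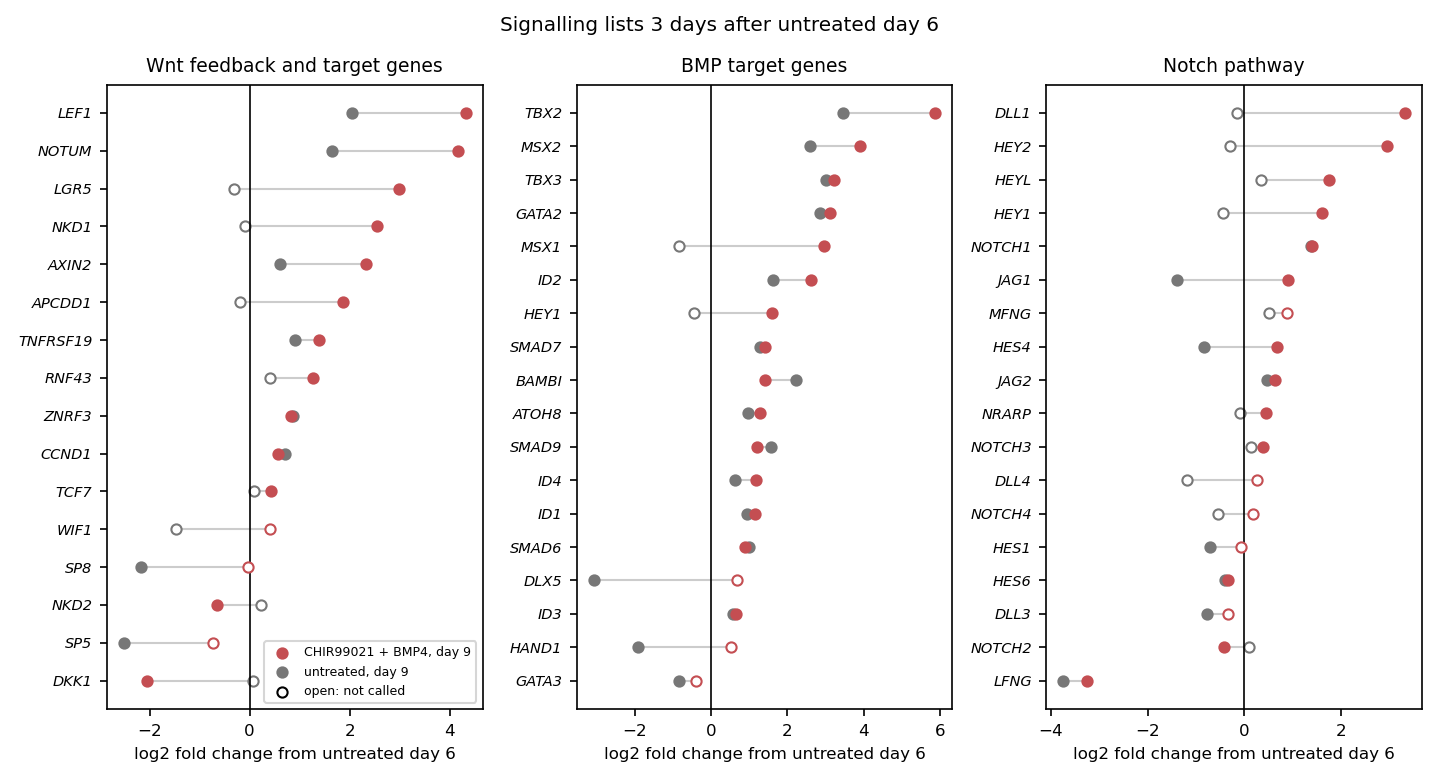
Log2 change from untreated day 6 (horizontal axis) for Wnt target, BMP target and Notch pathway genes, with the product of CHIR99021 and BMP4 in red and untreated day 9 in grey; open symbols were not called. LEF1, NKD1 and DLL1 lie far to the right for the product, while SMAD7 and ID3 lie close together for both.

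More Notch pathway genes were called higher than lower in the product, and more lower than higher with time alone. Of 18 tested genes of 19, 10 were called higher and 3 lower, with a median log2 change of 0.54 (1 and 1 under the covariate, 8 and 2 with day 6 replicate 2 alone). With time alone 2 were called higher and 6 lower. The ligand DLL1 was at 7.78, 11.6 and 6.87 CPM at day 6 and at 113, 60.4 and 80.5 CPM in the product, a rise of 9.95-fold (adjusted p = 9.3e-09). Untreated day 9 libraries held 7.17 CPM of DLL1, within the day 6 range. The HEY genes are transcriptional repressors that Notch activates. HEY2 went from 2.01, 2.39 and 2.58 CPM to 15.1, 18.7 and 20.1 CPM (7.66-fold), HEYL rose 3.36-fold to 10.1 ± 1.10 CPM, and HEY1 3.05-fold to 25.4 ± 3.76 CPM. HEY1 also stands on the BMP target list. HES1, another Notch target, did not differ beyond its spread (49.4 ± 2.16 and 46.7 ± 3.71 CPM, adjusted p = 0.54). NOTCH1 rose 2.64-fold to 119 ± 9.76 CPM and was at 116 CPM in untreated day 9 endoderm. LFNG, the fringe enzyme that modifies Notch receptors, was at 97.6, 99.9 and 74.9 CPM and then at 9.62, 7.65 and 10.7 CPM (9.53-fold lower), with 7.04 CPM at untreated day 9.

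Regulators of the anterior foregut and pharynx split. Of 21 tested of 25, 8 were called higher and 6 lower (1 and 3 under the covariate, 6 and 5 with day 6 replicate 2 alone). Beside PAX1, the cardiac and pharyngeal homeobox genes NKX2-5 and NKX2-6 rose, from 6.98 ± 2.87 to 44.1 ± 7.30 CPM (6.14-fold) and from 3.05 ± 1.36 to 15.5 ± 3 CPM (4.90-fold). ISL1 was at 65.3, 67.5 and 107 CPM and then at 141, 183 and 164 CPM (2.02-fold, adjusted p = 0.035), a call that was lost without any 1 of 4 libraries (day 6 replicates 1 and 2, product replicates 2 and 3; adjusted p from 0.0706 to 0.113). The ISL1 call was also lost with the replicate block (adjusted p = 0.0536), without the low-count filter (0.0508) and with day 6 replicate 2 alone (0.119), and the sign changed under the covariate (log2 -0.24). PAX9, the close relative of PAX1, went the opposite way, from 14.1, 18.3 and 12.8 CPM to 2.10, 1.55 and 1.14 CPM (9.49-fold lower). SIX3 fell 8.52-fold from 72.6 ± 6.80 to 8.43 ± 1.18 CPM, and DMBX1 5.90-fold from 147 ± 54.7 to 25 ± 2.31 CPM. OTX2, a regulator of head and anterior endoderm, was at 482 ± 22.1 and then at 324 ± 30.4 CPM (1.48-fold lower, adjusted p = 0.016), a call that missed the threshold without product replicate 2 (adjusted p = 0.0622). TBX1 was at 15.5 ± 4.53 and 9.86 ± 1.70 CPM and was not called (adjusted p = 0.095), but was called lower in a fit of only the compared groups (log2 -0.66, adjusted p = 0.0127).

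FOXE1, a forkhead gene of thyroid and pharyngeal endoderm, was far higher at untreated day 9 than in the product. It was at 6.84, 6.05 and 4.72 CPM at day 6 and at 13.4, 32.4 and 11.5 CPM in the product (adjusted p = 0.066). The product libraries all lay above the start, with replicate 2 apart from the others. Without product replicate 3 the rise was called (log2 1.93, adjusted p = 0.0463). FOXE1 was at a mean of 295 CPM at untreated day 9, above the product by 4.04 on the log2 scale (adjusted p = 2.9e-05). DIO2, a deiodinase that activates thyroid hormone, was at 0.938, 1.11 and 1.61 CPM and then at 56.8, 86.6 and 56.7 CPM, a rise of 52.4-fold that was not called under the covariate (adjusted p = 0.572). The thyroid regulator PAX8 had 0.0531 CPM at day 6 and 0.507 CPM in the product, too few reads to be tested. Of 8 listed thyroid genes 2 could be tested, and 1 of them was called, higher (0 under the covariate, 1 with day 6 replicate 2 alone).

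Respiratory genes moved in both directions. Of 14 tested of 17, 5 were called higher and 5 lower (1 and 1 under the covariate, 5 and 5 with day 6 replicate 2 alone). NKX2-1, the earliest marker of the lung and thyroid fields, was at 0.670, 0.477 and 0.537 CPM at day 6 and at 8.97, 13.6 and 9.38 CPM in the product. It rose 18.1-fold (log2 change 4.18 ± 0.29 SE, adjusted p = 2.5e-11), and untreated day 9 libraries held 1.15 CPM. Under the covariate NKX2-1 was not called (log2 3.97, adjusted p = 0.255). SFTA3, which lies next to NKX2-1, went from 0.142 to 1.42 ± 0.804 CPM (ratio 9.85, interval 3.20 to 49.3). The Iroquois genes diverged. IRX1 rose 3.80-fold to 28 ± 3.53 CPM and IRX3 2.42-fold to 27.7 ± 1.29 CPM, while IRX5 fell from 21.4 ± 1.39 to 14.5 ± 1.12 CPM (1.47-fold). ETV4 and ETV5, targets of FGF signals in the lung bud, fell to 8.64 ± 0.857 and 14.6 ± 1.65 CPM (3.41-fold and 3.47-fold). SOX9 was at 8.83 ± 2.08 and 7.55 ± 1.61 CPM (adjusted p = 0.61).

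Of genes of dorsal foregut and basal epithelium, SOX2 was at 98.5, 117 and 65.4 CPM and then at 17.5, 30.0 and 23.1 CPM (4.01-fold lower, adjusted p = 0.00034), with 74.7 CPM at untreated day 9. The SOX2 fall was not called under the covariate (log2 -0.41, adjusted p = 0.888). SOX21 fell 12.0-fold, from 18.4 ± 4.48 to 1.60 ± 0.539 CPM. TP63, the regulator of stratified epithelium, rose 4.58-fold from 10.8 ± 2.78 to 48.3 ± 2.11 CPM, and PITX1 2.23-fold to 24.7 ± 6.10 CPM. TP63 stood at 60.2 CPM at untreated day 9 (log2 difference of the product from it -0.33, adjusted p = 0.11). In all, 2 of 7 tested genes of 12 were called higher and 3 lower (1 and 1 under the covariate, 2 and 3 with day 6 replicate 2 alone).

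**Figure D4:**
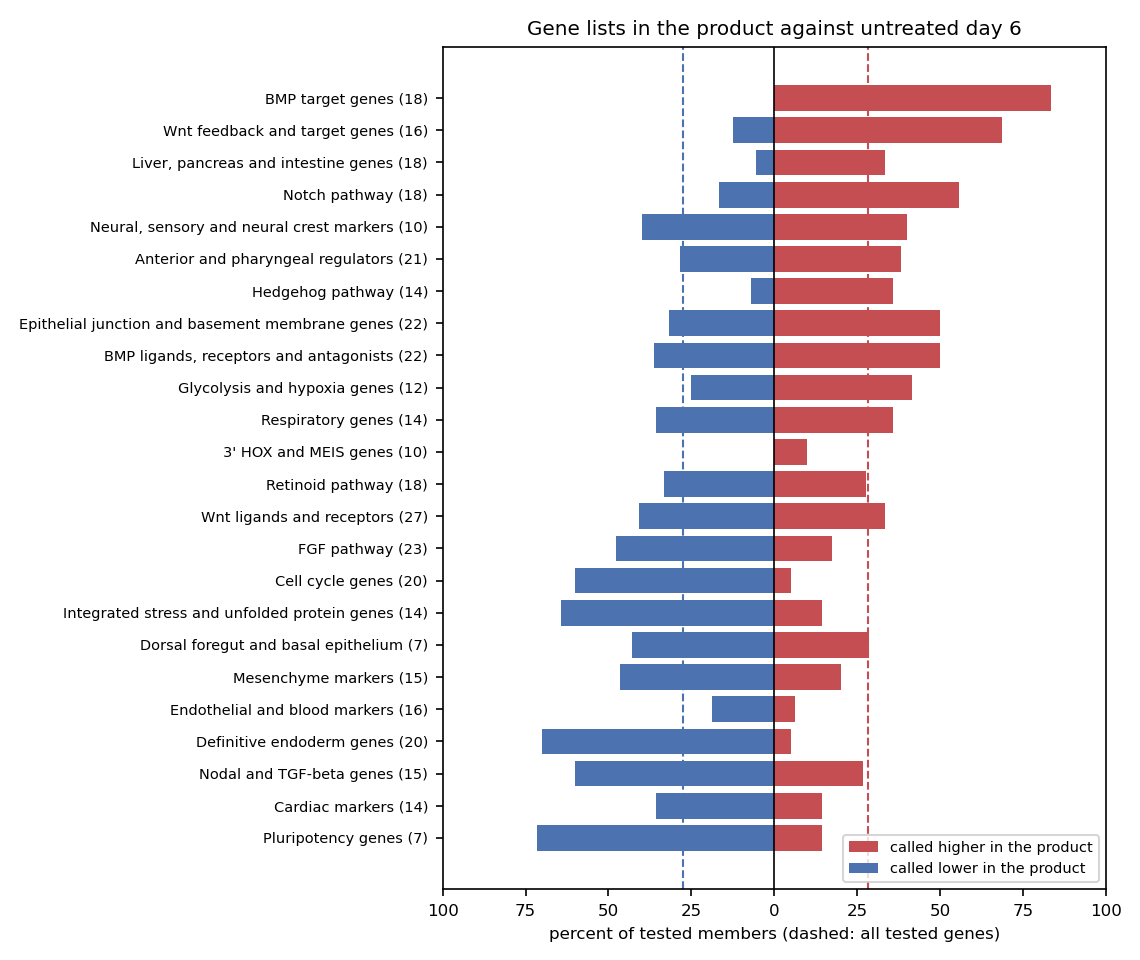
Percent of tested members called higher (right) or lower (left) in the product against day 6, for lists with at least 5 tested members; the number tested is in brackets, and dashed lines mark the shares over all genes (28.1% higher, 27.4% lower). The BMP target bar has no lower part, and the definitive endoderm bar lies mostly on the lower side.

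Most genes of definitive endoderm were lower in the product than at day 6, and most had also fallen with time alone. Of 20 tested, 1 was called higher and 14 lower, with a median log2 change of -1.12 (1 and 6 under the covariate, 1 and 14 with day 6 replicate 2 alone). With time alone 2 were called higher and 15 lower, and product against untreated day 9 called 5 higher and 7 lower, with a median log2 difference of 0.10. The pioneer factor FOXA1 was at 162, 173 and 145 CPM and then at 26.4, 31.5 and 30.7 CPM (5.42-fold lower, adjusted p = 8.9e-17). FOXA2 was at 91.3, 89.6 and 95.2 CPM and then at 17.8, 27.4 and 11.5 CPM (5.10-fold lower). In untreated day 9 endoderm their means were 35.4 and 34.1 CPM, below every day 6 library and above every product library. SOX17 fell 4.62-fold to 4.91 ± 0.807 CPM, GATA4 3.46-fold to 7.66 ± 1.39 CPM and GATA6 2.69-fold to 8.39 ± 1.59 CPM. Genes of the early mesendoderm stage fell further, EOMES 42.2-fold to 0.202 CPM, LHX1 25.5-fold to 0.667 CPM and GSC 22.7-fold to 0.176 CPM. HHEX was at 38.5 ± 12.0 and 43.5 ± 18.6 CPM (adjusted p = 0.73). CDH1 (E-cadherin) was the member called higher, at 253, 242 and 203 CPM and then at 649, 701 and 570 CPM (2.75-fold). FOXA1, FOXA2, SOX17 and the GATA factors were all detected in every product library, at lower levels than at the start. Whether they came from the foregut endoderm of the label or from other cells was not tested.

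Genes of the Nodal and TGF-beta pathway and of pluripotency mostly fell as well. In the Nodal and TGF-beta list 4 of 15 tested were called higher and 9 lower (1 and 2 under the covariate, 3 and 6 with day 6 replicate 2 alone). NODAL went from 24.7, 10.3 and 7.94 CPM to 5.57, 2.66 and 3.52 CPM (3.56-fold lower), and its inhibitors LEFTY1 and LEFTY2 fell 4.63-fold and 4.99-fold, to 0.130 and 0.424 CPM. Time alone called 7 higher and 6 lower in that list. Of 7 tested pluripotency genes 1 was called higher and 5 lower (0 and 1 under the covariate, 0 and 5 with day 6 replicate 2 alone), and 0 and 6 with time alone. POU5F1 fell 5.90-fold to 0.561 CPM and ZFP42 7.65-fold to 2.78 CPM. LIN28A, an RNA-binding protein of stem and early embryonic cells, fell 2.03-fold from 2890 ± 267 to 1426 ± 94.1 CPM. Summed over the 11 pluripotency genes the level was 2781 to 3348 CPM at day 6 and 1432 to 1596 CPM in the product, most of it LIN28A.

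A few liver genes rose from very low levels. Of 18 tested genes of liver, pancreas and intestine, 6 were called higher and 1 lower (1 and 0 under the covariate, 4 and 1 with day 6 replicate 2 alone). AFP was at 0.134, 0.318 and 0.215 CPM and then at 5.93, 25.4 and 10.4 CPM (58.0-fold). FGB went from 0.106 to 3.91 ± 1.90 CPM (ratio 40.8, interval 11.1 to 340), and TTR rose 2.60-fold to 12.8 ± 3.67 CPM (adjusted p = 0.033, from 0.0559 to 0.0938 without any of the day 6 libraries or without product replicate 2). VIL1, an intestinal villus protein, fell 5.63-fold to 5.45 ± 0.538 CPM. None of AFP, FGB, TTR and VIL1 was called under the covariate (adjusted p from 0.188 to 0.976). PDX1 had no read in any of the 6 libraries, CDX2 none at day 6 and 0.311 CPM in the product, and HNF4A was not called (2.61 ± 0.918 and 4.67 ± 1.29 CPM, adjusted p = 0.091). HNF4A was called higher with DESeq2 (adjusted p = 0.0166), in a fit of only the compared groups (0.0306) and without product replicate 3 (0.0283). CDX2 was the named gene that gained a call under the covariate (log2 91.8, adjusted p = 0.0082). That fitted value rests on a group without reads and is not a usable fold.

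Retinoid genes changed in both directions, with 5 of 18 called higher and 6 lower (1 and 3 under the covariate, 4 and 4 with day 6 replicate 2 alone), shares near those over all genes. Besides CYP26C1, the degrading enzyme CYP26A1 was at 61.4, 58.2 and 84.9 CPM and then at 126, 108 and 131 CPM (1.78-fold), with 125 CPM at untreated day 9 and a changed sign under the covariate (log2 -0.21, not called). The synthesising enzymes ALDH1A1 and ALDH1A2 rose, the latter 2.52-fold to 2.64 ± 0.232 CPM. STRA6, the retinol uptake receptor, rose 3.95-fold from 26.4 ± 2.24 to 104 ± 2.57 CPM. RARB, an RA receptor that RA itself induces, was at 70.1, 75.9 and 71.3 CPM and then at 8.76, 8.20 and 9.27 CPM (8.19-fold lower, adjusted p = 2.3e-14). It was also lower than at untreated day 9 (33.3 CPM, adjusted p = 1.9e-10). The RA-binding protein CRABP1 fell 3.29-fold to 2.18 CPM. Of 10 tested 3′ HOX and MEIS genes 1 was called higher and 0 lower (1 and 0 under the covariate and with day 6 replicate 2 alone). It was MEIS2, rising 4.84-fold from 28.2 ± 6.21 to 135 ± 15.5 CPM. No gene of that list was called lower, also at an unadjusted p below 0.05 (edgeR) and with DESeq2 or limma. For 7 of the 14 listed genes this was fixed in advance, because they had no read at day 6 and could not fall. HOXB1 had no read at day 6 and 1 read over the 3 product libraries.

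Of 14 tested Hedgehog genes 5 were called higher and 1 lower (3 and 0 under the covariate, 4 and 0 with day 6 replicate 2 alone), and the ligand SHH was not called. SHH was at 30.2, 24.5 and 27.0 CPM at day 6 and at 44.2, 26.8 and 5.08 CPM in the product, so the product libraries spread on both sides of the start (adjusted p = 0.84). GLI1, the usual readout of the pathway, was at 15.5 ± 4.05 and 14.2 ± 6.36 CPM (adjusted p = 0.57). PTCH1, the receptor and feedback target, was at 168, 142 and 168 CPM and then at 201, 295 and 127 CPM (adjusted p = 0.23), and was called higher without product replicate 3 (log2 0.63, adjusted p = 0.0149). GLI2 rose 2.49-fold to 97.7 ± 13.9 CPM, GLI3 1.74-fold to 390 ± 38.1 CPM, and the co-receptor BOC 3.91-fold to 78 ± 18 CPM.

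Cell junction and basement membrane genes changed in both directions, 11 of 22 higher and 7 lower (2 and 3 under the covariate, 10 and 7 with day 6 replicate 2 alone). As CDH1 rose, CDH2 (N-cadherin) fell from 1041, 1032 and 983 CPM to 297, 287 and 274 CPM (3.56-fold). The laminin chain LAMC1 rose 2.26-fold to 849 ± 74.1 CPM, and CLDN4, a claudin of tight junctions, 2.37-fold to 140 ± 11.2 CPM. OCLN, another tight junction protein, fell 2.45-fold to 33.5 ± 2.31 CPM, and COL4A6 3.23-fold to 356 ± 32.8 CPM. CDH1 and CDH2 had each moved the same way with time alone, and the product was further along in both (adjusted p against untreated day 9 = 0.015 and 3.5e-06).

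Markers of other cell types that such cultures can hold were measured in both groups. Mesenchyme markers summed to 1142 to 1305 CPM at day 6 and 1166 to 1434 CPM in the product, with 3 of 15 tested called higher and 7 lower (1 and 1 under the covariate, 3 and 8 with day 6 replicate 2 alone). COL1A2 rose 8.64-fold from 99.4 ± 8.22 to 861 ± 120 CPM, PRRX1 14.0-fold to 7.63 ± 2.42 CPM, TAGLN fell 9.70-fold from 355 ± 111 to 36.7 ± 2.38 CPM, and COL3A1 6.05-fold to 43.9 ± 5.94 CPM. Cardiac markers summed to 89.9 to 151 CPM at day 6 and 22.8 to 35.2 CPM in the product (2 of 14 called higher and 5 lower, 0 and 1 under the covariate, 0 and 7 with day 6 replicate 2 alone). NPPB fell 12.2-fold to 2.12 ± 0.764 CPM and MYL7 12.1-fold to 2.71 ± 0.520 CPM, and NPPA and MYBPC3 had no read in the product. Endothelial and blood markers summed to 334 to 405 CPM and then to 115 to 182 CPM (1 of 16 called higher and 3 lower, 0 and 0 under the covariate, 0 and 4 with day 6 replicate 2 alone). CD34 fell 5.53-fold to 14.5 ± 4.15 CPM and TEK 2.95-fold to 8.11 ± 0.567 CPM, and GATA1 had no read in either group. Neural, sensory and neural crest markers summed to 22.1 to 34.7 CPM and then to 75.4 to 85.4 CPM (4 of 10 called higher and 4 lower, 0 and 1 under the covariate, 3 and 4 with day 6 replicate 2 alone), a list that holds HMX3 and HMX2. SOX10, a neural crest marker, fell 30.5-fold to 0.107 CPM, and FOXD3 and NEUROG2 had no read in either group. HBB, a globin gene, was at 67.2, 7 and 37.6 CPM at day 6 and at 0, 8.98 and 0 CPM in the product (adjusted p = 0.079). The part of such cells in the gene differences above was not tested.

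The second transit, from RA-treated day 6 endoderm to the same endoderm after CHIR99021 and BMP4, called 51.8% of the 15531 genes (25.1% higher, 26.7% lower). The 4 groups share no library, so the difference between the transits could be tested, and it was called for 37.2% of genes (20.1% with the log2 change greater in the unprimed transit, 17.1% with it smaller). Both groups of the RA-primed transit had a treated-kind share of 98.0% to 98.4% in every library, unlike the unprimed start. Under the read-kind covariate the difference was called for 793 genes in place of 5776.

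Of the 4 markers, PAX1, JAG1 and LEF1 had a called difference between the transits. PAX1 went from 0.223 to 7.02 ± 0.514 CPM in the RA-primed transit, a level far below the 362 ± 28.3 CPM of the unprimed product though a larger change (log2 4.96, difference -3.33 ± 0.78 SE, adjusted p = 0.0036). JAG1 went from 71.7 to 63.0 CPM (difference 1.08, adjusted p = 0.044) and LEF1 from 1.33 to 13.1 CPM (difference 1.02, adjusted p = 0.031). CYP26C1 was at 0.509 CPM after RA and at 0.0335 CPM after RA and the 2 agents, and the difference was not called (adjusted p = 0.14).

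NKX2-1 and SHH both rose in the RA-primed transit, and for both the change differed from that in the unprimed transit. NKX2-1 went from 0.110, 0.0817 and 0.142 CPM to 81.3, 86.7 and 69.7 CPM there, against 10.7 ± 2.58 CPM in the unprimed product (difference of log2 changes -5.22 ± 0.77 SE, adjusted p = 1.2e-05). SHH went from 19.7 to 516 ± 37.0 CPM in the RA-primed transit (difference -4.85, adjusted p = 0.00029). Of the 14 tested respiratory genes, 9 were called higher and 2 lower in the RA-primed transit, against 5 and 5 in the unprimed one, and the difference itself was called for 10 genes toward the RA-primed transit and 1 toward the unprimed one. SOX2 moved in opposite directions, from 33.8 to 153 CPM in the RA-primed transit and from 93.6 to 23.6 CPM in the unprimed one (difference -4.18, adjusted p = 2.4e-05). Its unprimed fall was not called under the read-kind covariate (log2 -0.41, adjusted p = 0.888).

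DKK1 was another gene of opposite directions. It rose 34.8-fold in the RA-primed transit, from 0.772, 0.899 and 1.42 CPM to 32.8, 41.1 and 30.7 CPM, and fell 4.16-fold in the unprimed one (difference -7.18 ± 0.49 SE, adjusted p = 3.1e-08). AXIN2 differed much less, reaching 56.4 CPM in the RA-primed and 58.8 CPM in the unprimed product (difference 0.41, adjusted p = 0.038). FZD5 was already low after RA, at 314 CPM, and went to 229 CPM, a smaller fall than the 22.1-fold of the unprimed transit (difference -4.00, adjusted p = 3.1e-16). CYP26A1 went from 278, 338 and 347 CPM after RA to 0.478, 1.10 and 0.551 CPM, whereas in the unprimed transit it rose 1.78-fold (difference 9.73 ± 0.37 SE, adjusted p = 5.6e-11). ABCA4, a retinoid transporter, went from 2.55, 2.71 and 2.79 CPM to 40.3, 41.6 and 33.7 CPM in the unprimed transit and from 4.28 to 0.256 CPM in the RA-primed one (difference 7.56 ± 0.33 SE, adjusted p = 4.9e-14). PLCL1, a relative of phospholipase C, went from 19.4, 19.1 and 11.8 CPM to 0.0724, 0.554 and 0.415 CPM in the unprimed transit and from 4.62 to 10.3 CPM in the RA-primed one (difference -6.74, adjusted p = 2e-09). RORB, which rose in the unprimed transit, stayed at 0.259 and 0.0829 CPM in the RA-primed one.

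**Figure D5:**
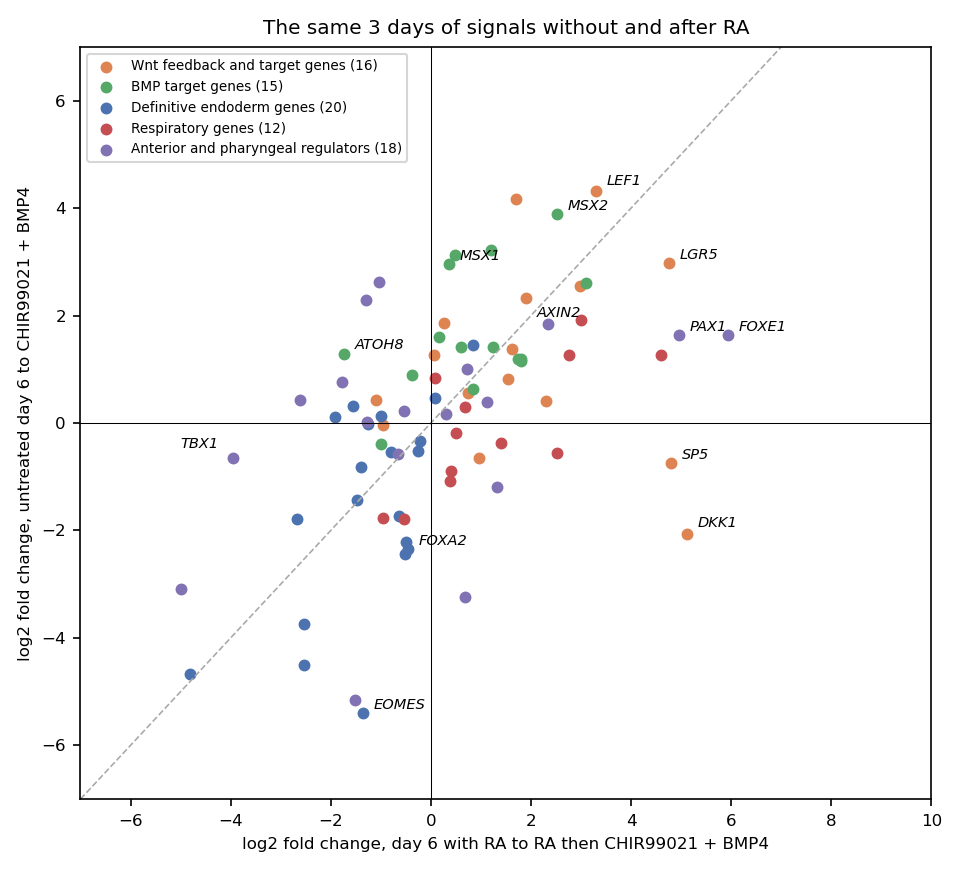
Log2 change in the RA-primed transit (horizontal axis) against that in the unprimed transit (vertical axis) for genes of 5 lists with more than 3 counts in each of the 4 groups; the dashed line marks equal change. DKK1 lies far below the line, at 5.12 and -2.06, and LEF1 slightly above it, at 3.30 and 4.32.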

How the data were processed

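Bulk poly(A) RNA was measured by stranded RNA-seq in 18 libraries (6 groups of 3). The submitters' processing notes name STAR 2.7.9 and the GRCh38 build. Neither the counting tool nor its annotation or strand option is stated (not given in the sources used here). The deposited table holds whole-number read counts per gene, and TPM values made by the authors, for 35025 genes, of which 36 without a symbol hold 0.00102% of counts. Raw counts were tested with edgeR 4.0.16 in R 4.3.3 (TMM scaling, filterByExpr with a minimum count of 10, robust quasi-likelihood fit over all 18 libraries, Benjamini-Hochberg adjustment over 15531 genes), and a gene was called at an adjusted p below 0.05. Fold changes are fitted, except that a group at 0 reads gives a lower bound against 3 reads over the group, and a group with 1 to 3 reads gives the ratio of reads with a 95% counting interval. The deposited TPM values entered only the limma 3.58.1 alternative, as log2(TPM + 1). Other alternatives were DESeq2 1.42.0, other scaling, no low-count filter, a replicate block, the read-kind covariate, only the compared groups, and each library left out. The code was tested on simulated counts. Replicates differed by more than sampling noise (chi-square per gene 4.31 to 7.69 in the start and product).

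Genes named were the 10 largest rises and falls that were called, reached 5 CPM and did not overlap between groups, leaving out pseudogene and unnamed-transcript symbols; the 5 largest differences between the transits in each direction; the 4 markers; fixed pathway genes; and up to 6 called members of each of 25 lists. The libraries, members and lists were chosen with earlier results of these data known, and a few further genes named here (HBB, HMX2, TBX1 and genes given as not called or at 0) were chosen after their values were seen. Of 465 list entries 463 were in the table, and the other 2 were not analysed here. Promoter sequences are RefSeq's (GRCh38.p14). Some listed genes are not reported here by name.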

Additional observations from a re-analysis of the deposited data

Results flagged for a closer look

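The change over the 3 days with CHIR99021 and BMP4 differed between the unprimed and the RA-primed transit, by the interaction test in edgeR, for 5776 genes (37.2% of those tested). The 5 genes with the largest difference toward the unprimed transit were HOXB1 (log2 difference 10.89), CYP26A1 (9.73), DIO1 (8.77), RORB (8.64) and ABCA4 (7.56). The 5 largest toward the RA-primed transit were PAX6 (-8.53), DCN (-7.21), GPR183 (-7.20), DKK1 (-7.18) and PLCL1 (-6.74).

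HOXB1, a 3′ HOX gene, went from 140 to 0.258 CPM in the RA-primed transit and had a single read in the unprimed one, and DIO1, a deiodinase, went from 30.2 to 0.625 CPM in the RA-primed transit with no read at untreated day 6. GPR183, an oxysterol receptor, was at 0.277 CPM at day 6, had no read in the unprimed product, and went from 0 to 0.0319 CPM in the RA-primed transit. The fitted differences of HOXB1, DIO1, RORB, GPR183, PAX6 and DCN rest on groups at 0 or a few reads and depend on the prior count. DCN, the proteoglycan decorin, went from 1.02 to 0.168 CPM in the unprimed transit and from 0.249 to 6.46 CPM in the RA-primed one.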

How the results depend on the processing

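For the product against day 6, all alternatives other than the read-kind covariate gave between 6348 genes (day 6 replicate 2 alone, chosen after seeing the data) and 8730 genes called (no low-count filter), against 8632. With the covariate 1021 were called (404 higher, 617 lower), and 969 of them were among the 8632; product against untreated day 9 fell from 6654 to 130 and the difference of transits from 5776 to 793. Time alone gave 5026 and the RA-primed transit 8166 with it. The cause was not tested. With day 6 replicate 2 alone as the start, time alone called 4495 genes in place of 7287. Protein-coding genes outside the read-kind genes alone (also chosen after seeing the data) gave 7814. Leaving out 1 library at a time gave 7722 to 8041 for the product against day 6, 6287 to 6910 for time alone, 5568 to 6439 for CHIR99021 and BMP4 at day 9, 6886 to 7406 for the RA-primed transit and 4978 to 5535 for the difference. With limma on log2(TPM + 1), the share of calls that were higher moved from 51.3% to 28.2% for time alone (median of all genes -0.146), from 49.1% to 79.7% at day 9 (median 0.206) and from 54.1% to 67.5% for the difference (median 0.111). The labels state no pairing of replicates. Correlations of same-numbered deviations between start and product were 0.111, 0.0406 and 0.000625, and those of other-numbered ones -0.0952 to 0.0423. So few values cannot decide whether libraries were paired. The replicate block called 8682 genes, 8550 of them shared.

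Of 186 named genes all kept their side of the threshold with RLE and upper quartile scaling, 182 with DESeq2, 181 with limma and 178 to 181 without 1 library. Those of them that were called also kept their direction, which was not compared for uncalled genes. With the covariate 18 genes that were called without it changed sign, none of them called with it (log2): ATF3 0.40, BAMBI -0.22, CHAC1 0.33, CYP26A1 -0.21, CYP26C1 -0.32, FOXP2 1.75, HMX2 -0.42, ID1 -0.35, ID3 -0.50, INHBA -5.67, ISL1 -0.24, MCM2 -0.030, MSX2 -0.44, NOG -2.96, PITX1 -0.091, SMAD6 -0.23, TAL1 0.092 and TMEM132C -3.73. A depth of 5792269 to 25371403 counts limits genes below about 1 CPM, which rest on a few reads per library.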

Other observations

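FGF pathway genes changed in both directions, with more called lower than higher. Of 23 tested genes of the FGF list, 4 were called higher and 11 lower (0 and 2 under the read-kind covariate, 1 and 11 with day 6 replicate 2 alone), with a median log2 change of -0.27. Time alone called 4 higher and 13 lower. DUSP6, a phosphatase that damps ERK, was at 103, 92.8 and 76.4 CPM at day 6 and at 27.0, 22.9 and 28.1 CPM in the product (3.45-fold lower). SPRY1, a feedback inhibitor of receptor tyrosine kinases, was at 114, 139 and 110 CPM and then at 46.2, 28.9 and 40.9 CPM (3.09-fold lower), and neither gene's groups overlapped. The receptor FGFR3 rose 2.2-fold to 163 ± 9.41 CPM, and ETV1 2.48-fold to 27.0 ± 5.79 CPM.

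Several glycolytic genes rose, and their levels at untreated day 9 were also above day 6. LDHA, lactate dehydrogenase A, was at 168, 202 and 189 CPM at day 6, at 784, 672 and 738 CPM in the product (3.93-fold) and at 677 CPM at untreated day 9 (log2 difference of the product from it 0.11, adjusted p = 0.52). PDK1, a kinase that restrains pyruvate dehydrogenase, rose 3.88-fold to 90.1 ± 3.54 CPM, and PGK1 and ENO1 rose 2.14-fold and 2.06-fold. The secreted factors VEGFA and ADM fell 3.36-fold and 4.69-fold, to 291 ± 12.2 and 8.62 ± 0.565 CPM. Of 12 tested genes of glycolysis and hypoxia 5 were called higher and 3 lower (3 and 0 under the covariate, 5 and 3 with day 6 replicate 2 alone), the same counts as with time alone.

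Of 20 cell cycle genes 1 was called higher and 12 lower (0 and 4 under the covariate, 1 and 8 with day 6 replicate 2 alone). MCM6, a helicase subunit of DNA replication, went from 367 ± 13 CPM to 136 ± 10.9 CPM (2.7-fold lower), and the proliferation antigen MKI67 from 501 ± 15.7 to 382 ± 16.7 CPM (1.31-fold lower). MKI67 was at 574 CPM at untreated day 9. Of 14 genes of the integrated stress and unfolded protein responses 2 were called higher and 9 lower (0 and 0 under the covariate, 1 and 9 with day 6 replicate 2 alone). PSAT1, a serine synthesis enzyme, fell 2.14-fold to 76.6 ± 2.60 CPM, and CHAC1 3.91-fold to 2.15 ± 0.152 CPM, with no call for CHAC1 without day 6 replicate 1. DDIT4 rose 4.19-fold to 89.6 ± 13.8 CPM.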
